A study of Mus musculus with 5 samples.

Results

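The coagulation and fibrinolysis genes examined here were 36 genes named by symbol: the 3 fibrinogen chains, 10 clotting factors, 4 genes of the contact system, 11 inhibitors, 6 genes of fibrinolysis and 2 enzymes of the vitamin K cycle. They were found by matching each array probe's RefSeq accession to a symbol, and all 36 were present among the 17016 gene symbols on the array, with 48 probes. The samples were livers of male C57BL/6N mice that had received an EtOH (ethanol) diet for 8 weeks together with 3 binges of 5 g/kg EtOH. Their RNA, labelled with Cy5, was hybridised on 5 two-colour arrays against 1 purchased mouse RNA labelled with Cy3, which the labels call assorted total RNA and assign to liver of strain C57BL/6N. The 5 samples, called livers 1 to 5, form 1 group, and a diet control was not analysed here. Each value below is therefore a log2 ratio of these livers over the reference RNA and not an effect of ethanol.

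Blood clotting is a chain of proteases that ends with thrombin cutting soluble fibrinogen into fibrin, the mesh of a clot. Inhibitors in plasma and on the vessel wall limit the chain, and plasmin later dissolves the fibrin. Hepatocytes make most of these proteins and secrete them into blood, while vessel cells supply several cofactors and activators. Several factors and inhibitors work only after vitamin K-dependent carboxylation, and fibrinogen is also an acute phase protein whose synthesis rises with inflammation.

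The 3 fibrinogen chains are encoded side by side on chromosome 3, and their ratios moved together between livers, as described in the next paragraphs. Their promoters are shown for that reason, in RefSeq sequence of build GRCm38.p6 and written 5′ to 3′ on the strand of the gene, with 250 bases before and 50 bases after the annotated start. Fga lies at chr3:83025903-83026202 on the plus strand, Fgb at chr3:83049814-83050113 on the minus strand and Fgg at chr3:83007474-83007773 on the plus strand. Capitals mark matches, on either strand, to 3 motifs: CTGGGA, the core of the interleukin-6 response element described in fibrinogen promoters; TTGCNNAA, a motif of the C/EBP type; and GTTAAT, one arm of the site of the hepatocyte factor HNF1.
Fga: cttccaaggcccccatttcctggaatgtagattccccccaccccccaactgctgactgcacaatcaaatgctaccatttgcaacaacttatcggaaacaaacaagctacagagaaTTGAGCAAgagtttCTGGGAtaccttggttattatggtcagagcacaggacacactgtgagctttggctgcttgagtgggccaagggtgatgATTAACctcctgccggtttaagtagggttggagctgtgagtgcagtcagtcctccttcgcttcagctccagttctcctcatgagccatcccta
Fgb: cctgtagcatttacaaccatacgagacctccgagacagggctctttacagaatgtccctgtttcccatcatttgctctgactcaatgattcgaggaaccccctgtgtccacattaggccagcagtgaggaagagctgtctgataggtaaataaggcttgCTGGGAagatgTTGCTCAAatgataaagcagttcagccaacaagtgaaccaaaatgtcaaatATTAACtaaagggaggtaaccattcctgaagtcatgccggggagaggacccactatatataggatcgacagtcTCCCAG
Fgg: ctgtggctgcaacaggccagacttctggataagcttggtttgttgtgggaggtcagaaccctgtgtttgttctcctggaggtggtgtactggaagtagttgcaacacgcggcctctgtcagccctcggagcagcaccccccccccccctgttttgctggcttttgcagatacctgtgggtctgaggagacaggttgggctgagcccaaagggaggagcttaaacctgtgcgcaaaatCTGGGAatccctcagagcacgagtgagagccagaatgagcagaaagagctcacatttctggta
CTGGGA was found in all 3 promoters, starting 121 bases before the start in Fga, 91 bases before it in Fgb and 13 bases before it in Fgg, with another match after the start in Fgb. TTGCNNAA was found in Fga, 135 bases before the start, and in Fgb, 80 bases before it. GTTAAT was found as its reverse complement, 43 bases before the start in Fga and 29 bases before it in Fgb. No matches overlapped. Of 32851 mouse promoter windows of the same length, 31.8% held CTGGGA, 10.8% held TTGCNNAA and 7.10% held GTTAAT, so the first of these is a common string. The matches describe the letters and were not tested as binding sites.

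The arrays differed in brightness, with median signals over all probes of 78.4 to 177 in the liver channel and 75.5 to 151 in the reference channel. The upper quartile was 617 in the liver channel and 474 in the reference channel on array 3, but 416 and 584 on array 5. Signals given below before normalization therefore cannot be compared directly between arrays or channels. Ratios of the livers, taken in pairs, correlated across genes with r of 0.39 to 0.75 in 10 pairs, and genes are not independent replicates. Hepatocyte markers fitted the labelled tissue: their summed signal was 529346 to 646434 in the liver channel and 240577 to 310405 in the reference channel, and 3 of 6 tested stood above the reference RNA. Because liver was measured in bulk, fewer cells of a type and less RNA per cell cannot be told apart. Whether the samples came from separate animals is not stated in the labels, so the p-values cover the spread of 5 samples that may differ for technical reasons alone. No array had its dyes exchanged, so a bias of 1 probe for either dye stays in its ratio.

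Of the 36 genes, 32 could be tested: on at least 3 of 5 arrays their probe was well above background in the liver or the reference channel, and at least 3 values were left. In 8 of these 32 genes the livers stood above the reference RNA at an adjusted p below 0.05 (25.0%), against 14.2% of all 14915 genes tested. None stood below it at that threshold in limma, against 12.8% of all genes, and 3 were below at an unadjusted p below 0.05 (F3, Klkb1 and Serpinc1). In either direction 26.9% of all genes passed. The mean log2 ratio was above 0 in 24 genes and below 0 in 8, with a median of 0.20 beside -0.02 over all genes. Over the 6 hepatocyte markers tested the median was higher, at 0.61, and 3 of them stood above (50%). Whether the members differ from hepatocyte genes in general was not tested. Without the 3 fibrinogen chains the members' median was 0.11 and 7 of 29 genes stood above. A single gene, Fgb, passed the test with a ratio of at least 2-fold, which 0.865% of all genes did in the same direction.

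The fibrinogen chains carried both the highest ratio and the widest spread between livers among the tested members. Fgb, the B beta chain, had log2 ratios of 1.88, 2.09, 0.03, 0.46 and 1.96 in livers 1 to 5. Its mean was 1.29 ± 0.96 (SD, n = 5), a 2.44-fold higher level in liver than in the reference RNA (adjusted p = 0.0375). Livers 1, 2 and 5 were high, liver 4 was lower at 0.46 and liver 3 lay near the reference. The call was lost without liver 1 (adjusted p = 0.144), without liver 2 (0.0542) or without liver 5 (0.0896), and also with Agilent's processed signals (0.0535) or median centring (0.0823).

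Fga, the A alpha chain, had log2 ratios of 1.20, 1.61, -0.62, 0.01 and 1.79 in livers 1 to 5, with a mean of 0.80 ± 1.05 (SD, n = 5, adjusted p = 0.165). Fgg, the gamma chain, had 1.12, 1.59, -0.56, -0.08 and 1.22, with a mean of 0.66 ± 0.93 (SD, n = 5, adjusted p = 0.187). Livers 1, 2 and 5 were again high, and liver 3 was the lowest in both genes and below the reference. Without liver 3 both means passed the test, at 1.15 for Fga (adjusted p = 0.0320) and 0.96 for Fgg (adjusted p = 0.0400). Averaged over the 3 chains, the ratio was 1.40, 1.76, -0.38, 0.13 and 1.66 in livers 1 to 5, a range of 2.14. After each chain's own mean was removed, the chains lay within 0.085 to 0.42 of each other in any liver, so livers differed far more than chains did within a liver. Fgb had the highest ratio of the 3 chains in 5 of 5 livers.

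**Figure D1:**
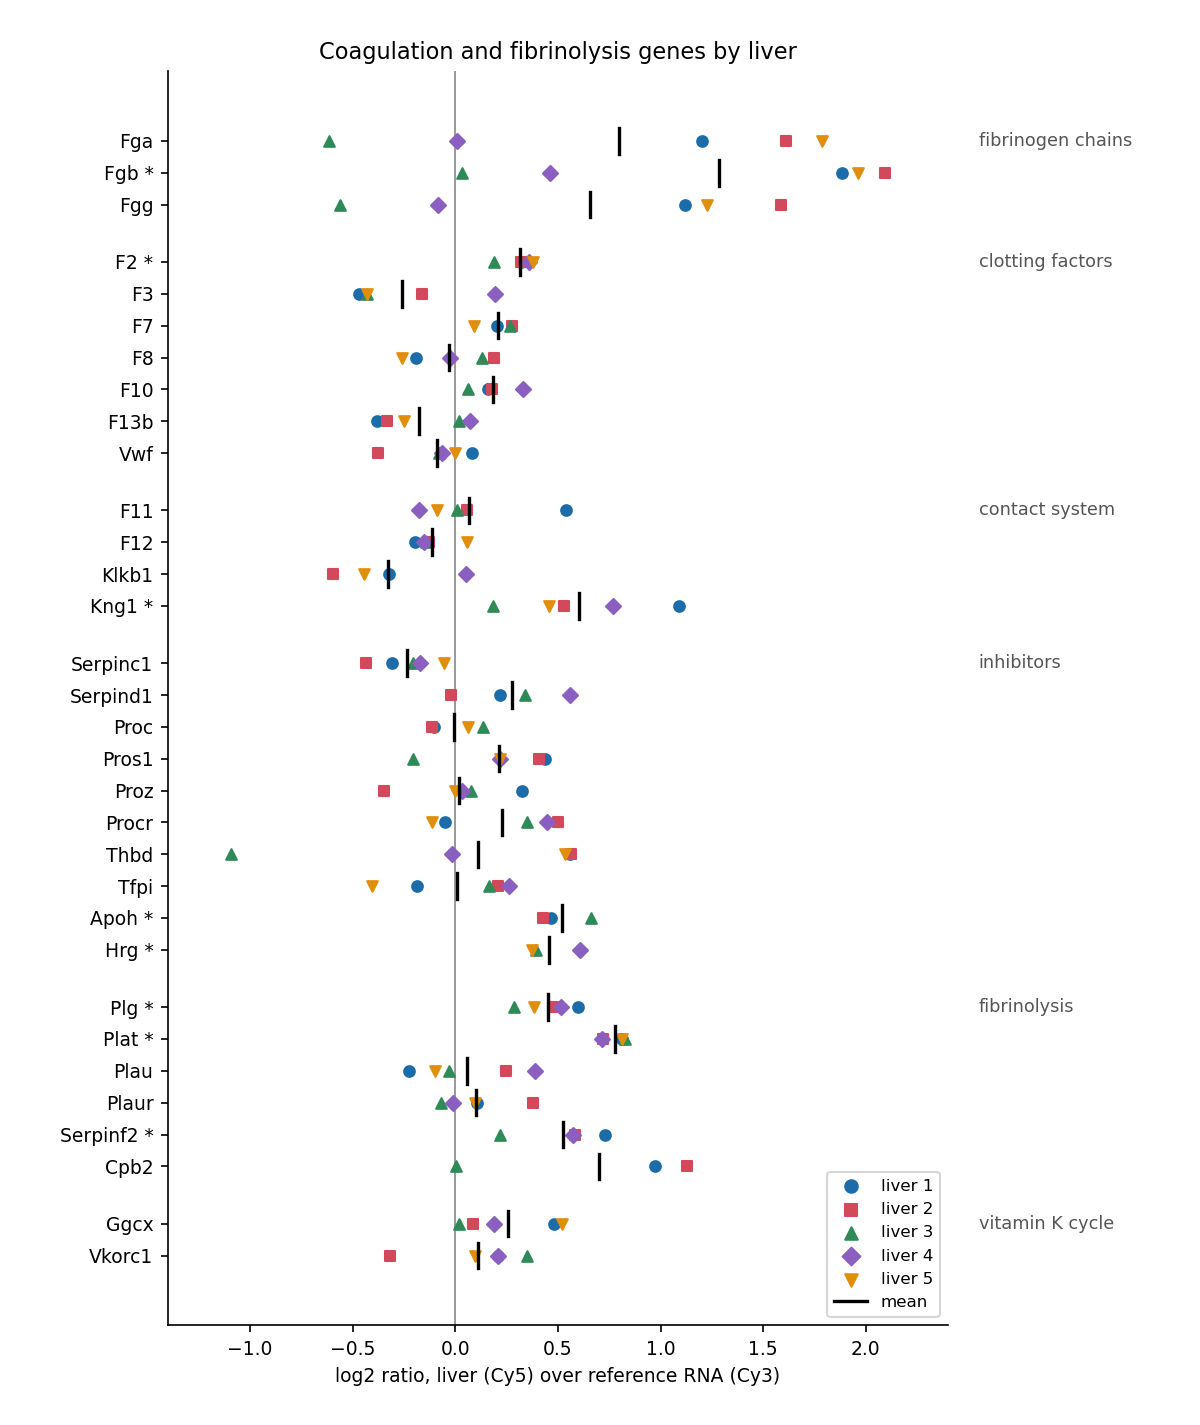
Log2 ratio of liver over reference RNA for each tested gene, with 1 point per liver, a black tick at the mean and genes grouped by role; a log2 ratio of 0 is equality and asterisks mark an adjusted p below 0.05. In the 3 fibrinogen chains liver 3 is the lowest and livers 1, 2 and 5 lie above 1, while Plat lay between 0.72 and 0.83 in all 5 livers.

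Behind these ratios are bright spots in both channels. The Fgb spot had background-subtracted signals of 191732, 194475, 113817, 132790 and 195037 in the liver channel of arrays 1 to 5, against 49906, 44420, 91697, 105074 and 66287 in the reference channel. The Fga spot had 94870, 119193, 54248, 64452 and 107036 in the liver channel, against 38821, 38956, 69773, 74517 and 43064 in the reference channel. The Fgg spot had 36920, 59500, 26334, 26577 and 59510 in the liver channel, against 16626, 19664, 31685, 33390 and 34826 in the reference channel. On arrays 3 and 4 the liver signal was the lowest of the 5 for each chain. The reference channel held the same RNA on every array but was not constant, and for Fga and Fgb it was brightest on arrays 3 and 4. With each channel scaled on its own to the array's upper quartile, the range over arrays was 1.76 (log2) in the liver channel and 1.00 in the reference channel for Fga, 1.71 and 0.94 for Fgb, and 1.74 and 0.53 for Fgg. In the liver channel alone, arrays 1, 2 and 5 were still above the average of each chain and arrays 3 and 4 below it. The part of the reference channel's variation in the spread of the ratios was not tested.

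**Figure D2:**
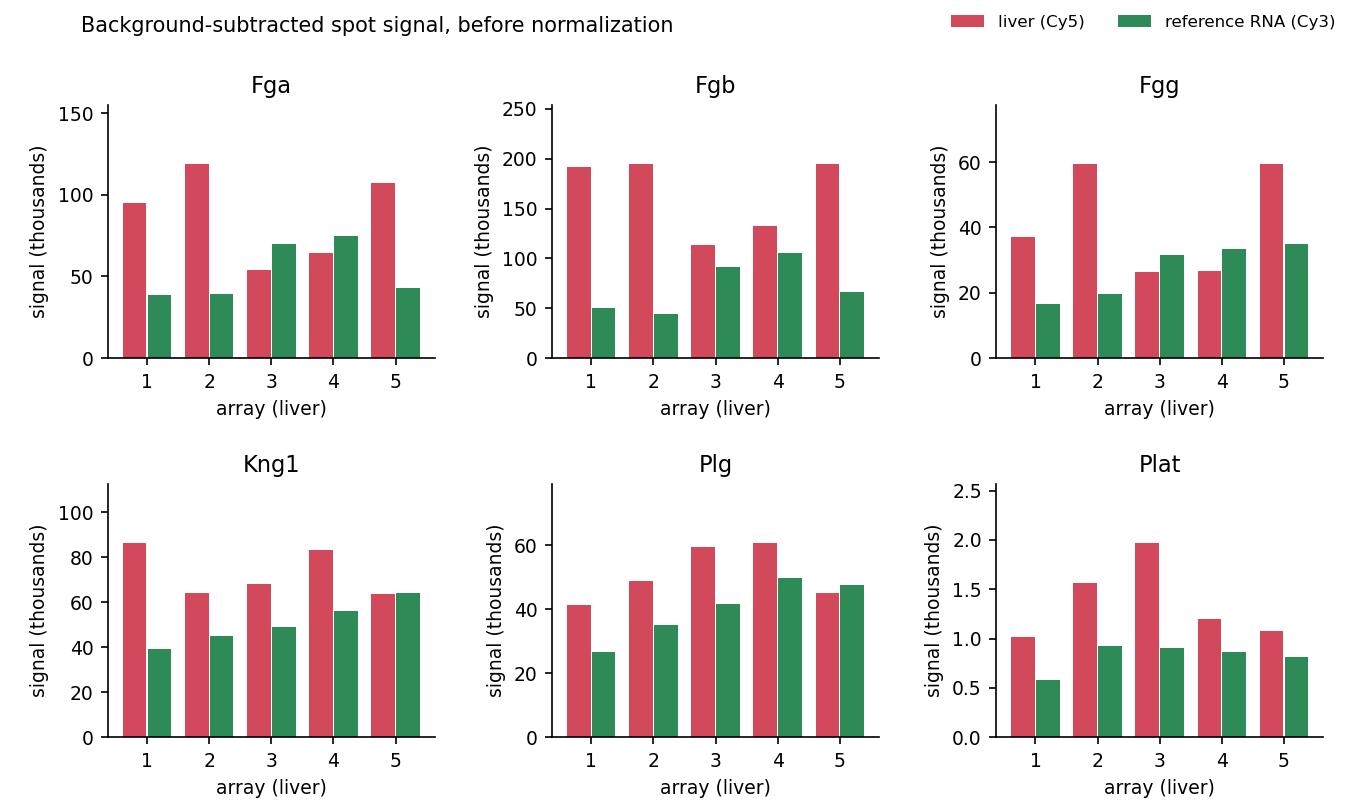
Background-subtracted signal, before normalization, of the Fga, Fgb, Fgg, Kng1, Plg and Plat probes on arrays 1 to 5, with the liver channel at the left of each pair and the reference channel at the right; each bar is 1 array's value. For each fibrinogen chain the liver channel is lowest on arrays 3 and 4, where Fgb reads 113817 and 132790 in the liver channel against 91697 and 105074 in the reference channel.

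The spread between livers was tested by setting each gene's variance against that of genes of like brightness (F test), over the 12013 genes whose probe was well above background on every array in both channels. The 3 chains had SDs at the 99.5 to 99.7 percentile of these genes, and their unadjusted p was 0.0014 for Fga, 0.0022 for Fgb and 0.0024 for Fgg. None of the 22 members in this test passed after adjustment, where 0% of all genes did, and the chains had adjusted p of 0.392, 0.444 and 0.456. At an unadjusted p below 0.05 there were 4 of 22 members, the chains and Thbd, against 5.74% of all genes. With median centring in place of loess, 220 genes passed after adjustment, and the 3 chains were among them (adjusted p = 0.00466, 0.0100 and 0.0147). Other acute phase plasma proteins were given beside them: of 11 tested, 4 stood above the reference RNA (36.4%), against 14.2% of all genes tested. In the spread test, 10 of 10 of these proteins had an unadjusted p below 0.05. Their median log2 ratio was 1.90, 2.22, -0.59, 1.58 and 1.06 in livers 1 to 5, and their summed signal was 557974 to 1197392 in the liver channel and 214267 to 622058 in the reference channel. The number above was 11 without liver 3, 1 without liver 1, 2 without liver 4 and 7 with the probes of a gene averaged. Liver 3 was the lowest there too, whereas liver 4 was high for this list and near 0 for fibrinogen. With each channel scaled to its array's upper quartile, the reference channel's range ran from 0.37 (log2) for Lcn2 to 2.53 for Saa1. In the liver channel it ran from 1.43 for Itih3 to 3.65 for Orm2, with 2.03 for Saa1. The part of the reference channel in this list's spread, and of these proteins in the fibrinogen result, was not tested.

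**Figure D3:**
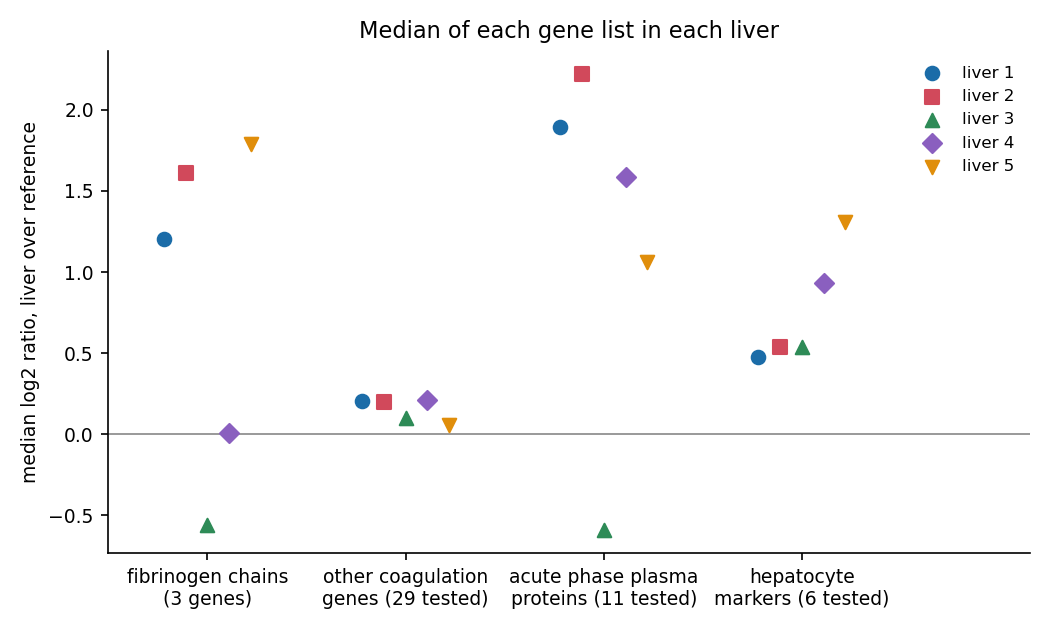
Median log2 ratio of liver over reference RNA for the fibrinogen chains, the other coagulation genes, acute phase plasma proteins and hepatocyte markers, with 1 point per liver. The other coagulation genes lie between 0.06 and 0.21, while the fibrinogen chains and the acute phase list both lie below 0 in liver 3 and differ in liver 4.

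Among the 10 clotting factors, 1 of 7 tested stood above the reference RNA and the others did not pass. F2, prothrombin, the precursor of thrombin, had log2 ratios of 0.32, 0.32, 0.19, 0.36 and 0.38 in livers 1 to 5. All 5 were above 0 and close together, with a mean of 0.31 ± 0.074 (SD, n = 5), a 1.24-fold higher level (adjusted p = 0.0116). Its SD lay at the 4.4 percentile of all genes in the spread test. Without liver 4 it no longer passed (0.30, adjusted p = 0.0569), nor did it with median centring (0.20, adjusted p = 0.288), with Agilent's processed signals (0.14, adjusted p = 0.130) or with the deposited ratios (0.14, adjusted p = 0.128).

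The other clotting factors tested, none of which passed, had means nearer to 0 than that of F2. F7, the protease that tissue factor activates at the start of clotting, averaged 0.21 ± 0.085 (SD, n = 4, adjusted p = 0.0919), and F10, the protease that turns prothrombin into thrombin, averaged 0.18 ± 0.11 (SD, n = 4, adjusted p = 0.131). Every measured liver was above 0 for both. F8, the antihaemophilic cofactor, made in liver mainly by sinusoidal endothelium, averaged -0.03 ± 0.20 (SD, n = 5). Vwf, the carrier of F8 and the tether of platelets, averaged -0.09 ± 0.17 (SD, n = 5), and 0.10 on its other probe. F13b, the carrier subunit of the factor that crosslinks fibrin, averaged -0.17 ± 0.21 (SD, n = 5). F3, tissue factor, was dim, at 80.0 to 145 in the liver channel and 111 to 219 in the reference channel. Its log2 ratios were -0.47, -0.16, -0.43, 0.19 and -0.43, with a mean of -0.26 ± 0.28 (SD, n = 5, adjusted p = 0.0933), and liver 4 alone lay above 0. Without liver 4, F3 passed the test at -0.37 (adjusted p = 0.0294).

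F5, F9 and F13a1 were not tested. F5, the cofactor of factor X, had an outlier mark from the scanner software on all 5 spots; with such spots kept, its mean was -0.02 ± 0.12 (SD, n = 5, adjusted p = 0.833). F9, the protease lacking in haemophilia B, had 2 probes with 2 and 0 values left, and averaged 0.24 ± 0.20 (SD, n = 5, adjusted p = 0.0698) with outlier spots kept. The probe of F13a1, the catalytic subunit of the fibrin crosslinking factor, known from macrophages and megakaryocytes, was not well above background in either channel on any array. Of 9 platelet and megakaryocyte markers, 7 were on the array and 4 could be tested, and none of these passed in limma, with 1 below the reference at an unadjusted p below 0.05. Outlier marks fell on 35 of 240 member spots (14.6%), in 14 of the 36 genes, against 3.29% of all spots.

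In the contact system, which starts clotting on charged surfaces and releases bradykinin, 1 of 4 genes stood above the reference RNA. Kng1, kininogen, from which bradykinin is cut, had log2 ratios of 1.09, 0.53, 0.18, 0.77 and 0.45 in livers 1 to 5. All 5 were above 0, liver 1 was the highest and liver 3 the lowest, and the mean was 0.60 ± 0.34 (SD, n = 5), a 1.52-fold higher level (adjusted p = 0.00916). Its other probe averaged 0.59. Kng2, a close relative encoded next to Kng1 on chromosome 16, averaged 0.64 ± 0.28 (SD, n = 5, adjusted p = 0.00463). Whether the probes of these closely related genes share signal was not tested. With Agilent's processed signals Kng1 averaged 0.30 and did not pass (adjusted p = 0.0803). Over the 14 alternatives tested against 0, Kng1 passed in 12, among them all 5 with a liver left out. Its adjusted p in limma reached 0.0828.

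The contact proteases did not pass. Klkb1, plasma prekallikrein, which frees bradykinin from kininogen, had log2 ratios of -0.32, -0.60, 0.05 and -0.45 in livers 1, 2, 4 and 5. Livers 1, 2 and 5 were below the reference and liver 4 was near it, with a mean of -0.33 ± 0.28 (SD, n = 4, adjusted p = 0.0718). Without liver 4 it passed at -0.45 (adjusted p = 0.0398), and it also passed at -0.48 with median centring (adjusted p = 0.0206) and at -0.39 with processed signals (adjusted p = 0.0409). With the outlier spot of liver 3 kept, that liver read 0.18 and the mean was -0.24 ± 0.33 (SD, n = 5, adjusted p = 0.166). F12, the factor that starts the contact pathway, averaged -0.11 ± 0.098 (SD, n = 5, adjusted p = 0.250), with 4 livers at -0.19 to -0.13 and liver 5 at 0.058. F11, the protease it activates, averaged 0.07 ± 0.28 (SD, n = 5), and liver 1 stood at 0.54 while the other livers lay between -0.18 and 0.06. F11 and Klkb1 are neighbours on chromosome 8.

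Of the 11 inhibitors of clotting and related plasma proteins, 10 could be tested and 2 stood above the reference RNA. Apoh, beta-2-glycoprotein I, a lipid-binding protein that dampens clotting on membranes, had log2 ratios of 0.47, 0.43 and 0.66 in livers 1, 2 and 3, and no value left in livers 4 and 5. Its mean was 0.52 ± 0.13 (SD, n = 3), a 1.43-fold higher level (adjusted p = 0.0119). Hrg, histidine-rich glycoprotein, which binds heparin and plasminogen, had 0.39, 0.61 and 0.37 in livers 3, 4 and 5. Its mean was 0.46 ± 0.13 (SD, n = 3), 1.37-fold higher (adjusted p = 0.0192). With outlier spots kept, each had 5 values, all above 0, with means of 0.54 ± 0.19 for Apoh (SD, n = 5, adjusted p = 0.00348) and 0.48 ± 0.11 for Hrg (SD, n = 5, adjusted p = 0.00299). The Hrg call was lost with median centring, at 0.27 (adjusted p = 0.287).

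The serpins that block thrombin did not pass, and the sign of Serpinc1 depended on the probe. Serpinc1, antithrombin, the main plasma inhibitor of thrombin and factor X, had log2 ratios of -0.31, -0.43, -0.21, -0.17 and -0.06 in livers 1 to 5. All 5 were below 0, with a mean of -0.24 ± 0.14 (SD, n = 5, adjusted p = 0.0507). It passed at -0.36 with Agilent's processed signals (adjusted p = 0.0109), and at the same mean of -0.24 without intensity trend and robust prior (adjusted p = 0.0478). A second Serpinc1 probe, which kept values in livers 3 and 4, read 0.29 and 0.36 there, and with outlier spots kept it became the brighter probe and averaged 0.15 ± 0.20 (SD, n = 5, adjusted p = 0.215). Serpind1, heparin cofactor II, averaged 0.27 ± 0.24 (SD, n = 4, adjusted p = 0.0884), and 0.12 ± 0.36 with outlier spots kept (SD, n = 5, adjusted p = 0.493). It passed without liver 2, at 0.37 (adjusted p = 0.0475). Serpina10, the inhibitor that protein Z directs to factor X, had 2 values, 1.17 in liver 1 and 1.33 in liver 2, and was not tested. With outlier spots kept it had 1.15, 1.31, -0.26, 0.66 and 0.44 in livers 1 to 5 and a mean of 0.66 ± 0.63 (SD, n = 5, adjusted p = 0.0630), with livers 1 and 2 highest and liver 3 below 0.

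The genes of the protein C pathway, which destroys the activated cofactors of clotting, also did not pass. Neither did Proz and Tfpi, which act outside that pathway. Proc, protein C, averaged -0.01 ± 0.12 (SD, n = 4), Pros1, its cofactor protein S, 0.21 ± 0.26 (SD, n = 5), and Proz, protein Z, 0.02 ± 0.24 (SD, n = 5). Procr, the endothelial receptor of protein C, averaged 0.23 ± 0.29 (SD, n = 5, adjusted p = 0.130), at low signals of 40.0 to 131 in the liver channel and 37.9 to 65.6 in the reference channel. Procr passed with median centring, at 0.30 (adjusted p = 0.0138), and Pros1 without liver 3, at 0.32 (adjusted p = 0.0410). Tfpi, the inhibitor of the tissue factor complex, averaged 0.01 ± 0.29 (SD, n = 5). Thbd, thrombomodulin, the endothelial receptor that turns thrombin towards protein C, had log2 ratios of 0.56, 0.57, -1.09, -0.01 and 0.53 in livers 1 to 5. Liver 3 lay far below the other livers, and the mean was 0.11 ± 0.72 (SD, n = 5, adjusted p = 0.773); without liver 3 it was 0.41 and passed (adjusted p = 0.0477). Its range over arrays was 2.34 (log2) in the liver channel and 0.28 in the reference channel, each scaled to its own upper quartile. Its SD lay at the 98.5 percentile of all genes, with an unadjusted p of 0.0093 and an adjusted p of 0.545 in the spread test.

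Several of these genes belong to vessel cells, so endothelial markers were read beside them. Of 9 endothelial markers tested of 10, 6 stood below the reference RNA (66.7%), against 12.8% of all genes tested, and none above. The median log2 ratio of these markers was -0.35. Their summed signal was 2608 to 4839 in the liver channel and 3474 to 6624 in the reference channel. Kupffer cell and macrophage markers were also below, in 4 of 7 tested (57.1%), with a median of -0.34, and in 2 without liver 1, liver 3 or liver 5. The part of these cells in the values of Thbd, Procr, Tfpi, F8, Vwf and Plat was not tested.

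Fibrinolysis held the most calls: 3 of 6 genes stood above the reference RNA (50%), against 14.2% of all genes tested. All 6 means were above 0. Plat, tissue plasminogen activator, which converts plasminogen to plasmin on fibrin, had log2 ratios of 0.81, 0.72, 0.83, 0.72 and 0.81 in livers 1 to 5. All 5 livers lay within a narrow band, with a mean of 0.78 ± 0.055 (SD, n = 5), a 1.71-fold higher level (adjusted p = 0.000447), and its SD was at the 1.6 percentile of all genes. A second, dimmer Plat probe went the other way, at -0.39, -0.25, -0.39, -0.46 and -0.55, with signals of 22.9 to 46.9 in the liver channel and 43.8 to 124 in the reference channel, against 1011 to 1972 in the liver channel and 579 to 925 in the reference channel for the brighter probe. With both probes averaged Plat was 0.18 and did not pass (adjusted p = 0.0577), so its direction rests on the brighter probe.

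Plg, plasminogen, the precursor of plasmin, had log2 ratios of 0.60, 0.48, 0.29, 0.51 and 0.38 in livers 1 to 5. All were above 0, with a mean of 0.45 ± 0.12 (SD, n = 5), a 1.37-fold higher level (adjusted p = 0.0041), and its other probe averaged 0.32. Serpinf2, alpha-2-antiplasmin, the main inhibitor of plasmin, had 0.73, 0.58, 0.22 and 0.58 in livers 1 to 4. Liver 3 was the lowest, and the mean was 0.53 ± 0.22 (SD, n = 4), 1.44-fold higher (adjusted p = 0.00917). The precursor of plasmin and its inhibitor thus both stood above the reference, in every liver measured. Plg lost its call with median centring (0.34, adjusted p = 0.0675).

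Cpb2, a carboxypeptidase (TAFI) that protects fibrin from plasmin, had log2 ratios of 0.97, 1.13 and 0.00 in livers 1, 2 and 3. Livers 1 and 2 were high and liver 3 was at the reference, with a mean of 0.70 ± 0.61 (SD, n = 3, adjusted p = 0.0821). With outlier spots kept it read 0.92, 1.11, 0.00, 0.77 and 0.41 and passed, at 0.64 ± 0.44 (SD, n = 5, adjusted p = 0.0172). Plau, urokinase, the other plasminogen activator, averaged 0.06 ± 0.25 (SD, n = 5) at low signals of 21.6 to 104 in the liver channel and 23.0 to 63.0 in the reference channel. Plaur, the urokinase receptor, averaged 0.10 ± 0.17 (SD, n = 5) and 0.41 on its other probe, and passed with both averaged, at 0.26 (adjusted p = 0.0308).

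Neither enzyme of the vitamin K cycle passed in limma, and Ggcx was above the reference at an unadjusted p below 0.05. Ggcx, the carboxylase that modifies vitamin K-dependent proteins, averaged 0.26 ± 0.23 (SD, n = 5, adjusted p = 0.0757) and was above 0 in 5 of 5 livers. Vkorc1, the vitamin K reductase that warfarin blocks, averaged 0.11 ± 0.26 (SD, n = 5). Of the 7 vitamin K-dependent members (F2, F7, F9, F10, Proc, Pros1 and Proz), 1 of 6 tested, F2, stood above the reference, and the median log2 ratio was 0.20. F7, F10 and Proz are neighbours on chromosome 8.

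**Figure D4:**
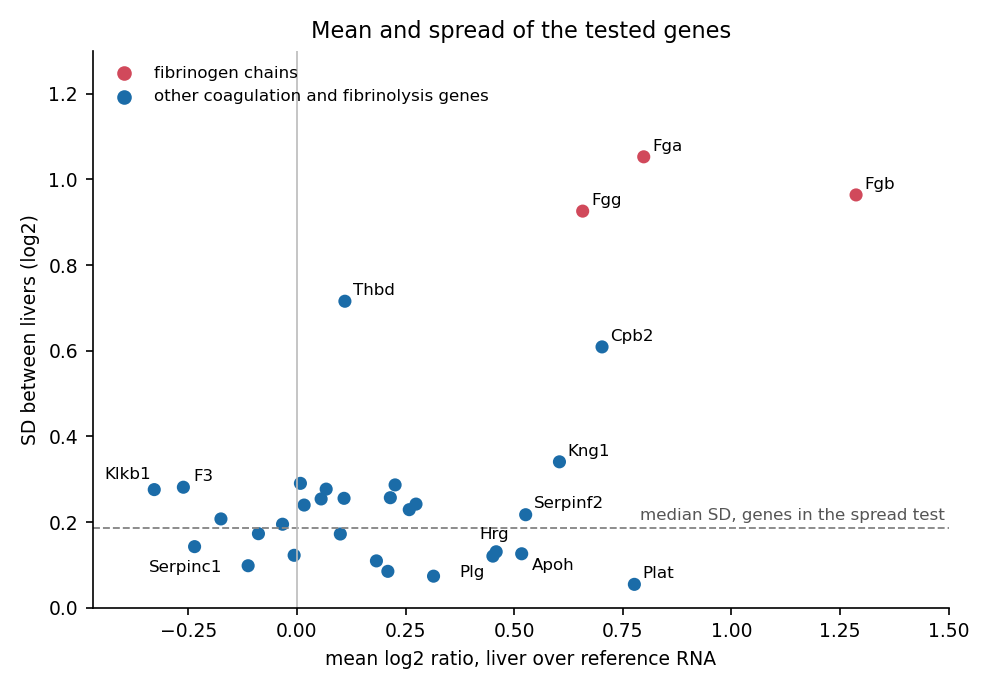
Standard deviation between livers (log2) against the mean log2 ratio of liver over reference RNA, with 1 point per tested gene; the dashed line is the median SD, 0.19, of the 12013 genes in the spread test. The fibrinogen chains and Thbd lie above an SD of 0.7 and Plat, at a mean of 0.78, has an SD of 0.055.

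Which liver was lowest was not evenly shared. Among 23 members with a value in every liver, liver 3 was the lowest in 10 (43.5%), against 17.8% of 13703 genes. Without the fibrinogen chains it was the lowest in 7 of 20 (35.0%). The median SD between livers was 0.22 over the members without fibrinogen, against 0.18 over all genes tested.

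Of 29 other genes of these pathways, 23 could be tested, with a median log2 ratio of -0.04. Of these, 6 stood above the reference RNA and 6 below (26.1% each), against 14.2% and 12.8% of all genes tested. Above were Fgl1, a fibrinogen-like protein secreted by hepatocytes (1.41 ± 0.20, SD, n = 3, adjusted p = 0.000783), Vtn, vitronectin, an adhesive protein of plasma and matrix (0.69 ± 0.28, SD, n = 5, adjusted p = 0.00341), and Habp2, a plasma protease that can activate factor VII (0.43 ± 0.18, SD, n = 5, adjusted p = 0.00867). Kng2, given above, was among them, as were Lman1, a cargo receptor for factors V and VIII (0.34 ± 0.19, SD, n = 4, adjusted p = 0.0368), and Mst1, a plasminogen-related growth factor (0.33 ± 0.16, SD, n = 4, adjusted p = 0.029).

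Below the reference were Anxa2, annexin A2, a cell surface receptor of plasminogen and Plat (-0.77 ± 0.36, SD, n = 5, adjusted p = 0.00431), and Thbs1, thrombospondin 1, a platelet and matrix protein (-0.45 ± 0.18, SD, n = 5, adjusted p = 0.0056). Fgl2, a membrane prothrombinase of macrophages and endothelium, averaged -0.34 ± 0.13 (SD, n = 5, adjusted p = 0.00609), and Tfpi2, a matrix inhibitor of plasmin, -0.32 ± 0.15 (SD, n = 5, adjusted p = 0.0207). Adamts13, which cuts von Willebrand factor and is made by stellate cells, averaged -0.23 ± 0.060 (SD, n = 5, adjusted p = 0.0182), and Serpina5, an inhibitor of activated protein C, -0.23 ± 0.15 (SD, n = 5, adjusted p = 0.0381). Without single livers, between 3 and 6 of the other pathway genes stood above and between 3 and 6 below. The low counts came without liver 4 for those above and without liver 3 for those below.

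Tgm2, a tissue transglutaminase and 1 of the most variable of the 23 tested genes, had 0.27, -1.22, -1.01 and 0.02 in livers 1, 3, 4 and 5, with a mean of -0.49 ± 0.74 (SD, n = 4, adjusted p = 0.244). The spot of liver 2, left out as an outlier, had the brightest liver signal of this probe, 5977 against 2702 in the reference channel. The mean therefore leaves out that liver. Over 8 alternatives the mean ranged from -0.74 to -0.012, and none passed in limma.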

How the data were processed

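RNA of 5 liver samples was measured on 5 two-colour arrays. Spot intensity values (median pixel brightness and local background, not normalized) come from the authors' run of Agilent's Feature Extraction software, version 11.5.1.1 per the file headers. The log10 ratios of processed, dye-normalized intensities stand in the same deposited files. The authors deposited a log2 ratio table of 40599 values, of which 99.7% matched, to 0.001, the processed intensities' log2 ratio of liver over reference; medians of its columns for livers 1 to 5 were -0.03, -0.07, -0.08, -0.10 and -0.03.

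Median intensities were used, since the files hold no mean intensity. Background was corrected with normexp (offset 50) and arrays were normalized by loess, giving control and outlier spots a weight of 0 (limma 3.58.1, R 4.3.3). Outlier spots, 2.32% to 4.05% per array, were then left out, spots of a probe were averaged, and each gene took the tested probe with the highest signal over both channels. No spot was saturated. Of 41174 probes, 24375 matched a RefSeq symbol through their accession and 16799 did not, and 4598 genes had more than 1 tested probe. Build mm8 is named in the file headers, so coordinates are given for RefSeq promoters alone. Mean ratios were tested against 0 by limma's eBayes (two-sided; trend on intensity, robust prior; Benjamini-Hochberg adjustment over 14915 genes), and the spread by an upper-tail F test over 12013 genes. After loess the spread test called 0 of these genes. Saa1, an acute phase plasma protein with an SD of 1.56, wider than any fibrinogen chain, had an adjusted p of 0.284 in this F test. The lack of a call for the chains therefore does not show that their spread was ordinary. Precision is limited by the number of arrays: over 181 repeated probes the median SD was 0.10 between spots of an array and 0.17 between livers. The reference was 1 RNA, so differences between reference RNAs are not part of these errors. Variation of the reference channel between arrays is part of them, since each ratio holds its own array's reference signal.

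The members, the lists and the rule for naming genes (every member; other pathway genes past the test and up to 2 with the largest SD) were chosen with earlier results of these data known. Alternatives were median centring, processed signals, the deposited table, scaling between arrays, both filters on dim probes, averaged probes, outlier spots kept, other priors (for the spread chosen after seeing the data), a null of 2-fold and each liver left out. The values of 1 other pathway gene that the rule names are not reported here, though it stays in the counts.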

Additional observations from a re-analysis of the deposited data

Results flagged for a closer look

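F12, the factor that starts the contact pathway, had a log2 ratio of 0.058 in liver 5, against -0.19 to -0.13 in the other 4 livers. The gap to the nearest liver was 0.738 of the whole range, above Dixon's critical value of 0.71 for 5 samples. Of 50 sets of values examined this was the 1 set apart, and chance alone sets about 1 in 20 apart. The mean of F12 did not pass the test with or without that liver.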

How the results depend on the processing

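Between 6 and 10 genes stood above the reference RNA when a liver was left out, beside 8 with all 5. The number was 4 with Agilent's processed signals (F2, Fgb, Kng1 and Hrg lost) and 0 against a null of 2-fold, where 9 genes in all passed in limma (7 above, 2 below) instead of 4019. Genes below, 0 with all livers, were 1 with median centring, 1 without trend and robust prior, 2 with processed signals and 0 to 2 with a liver left out. Genes at least 2-fold higher, 1 with all livers, were 0 with median centring, processed signals, the deposited ratios or the 2-fold null, and 0 to 2 with a liver left out. Other pathway genes above, 6 in all livers, were 3 with median centring and 3 to 6 with a liver left out; those below were 3 to 6 with a liver left out. Past the spread test were 3 members with median centring and 0 otherwise. Over all genes, 1188 stood above and 1010 below without liver 4, against 2117 and 1902. Over all calls, 52.7% were above, with 44.6% under median centring. The cause of these shifts was not tested. Where a liver was left out, the number of arrays was also smaller.

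Of the 26 values with a reversed sign, in 10 genes, none passed the test (limma, adjusted p below 0.05). With median centring these were F11 at -0.064, Proz at -0.14, Tfpi at -0.12 and Vkorc1 at -0.033. Tfpi was also -0.0101 with processed signals and with deposited ratios, -0.038 with scaling, -0.066 with averaged probes and -0.0053 with outlier spots kept. Serpinc1 was 0.082 with deposited ratios and 0.15 with outlier spots kept, and Vwf was 0.0073 with averaged probes. The others arose with a liver left out. F8 then ranged between -0.088 and 0.024, F11 between -0.050 and 0.13, Proc between -0.053 and 0.030, and Proz between -0.060 and 0.11. Vwf lay between -0.13 and 0.17, but the 0.17, without liver 5, came from its other probe, which was then the one chosen. Over all 5 livers that probe averaged 0.10, against -0.09 for the probe used. Thbd ranged between -0.0033 and 0.41, Tfpi between -0.055 and 0.11, and Plau between -0.028 and 0.13.

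The slide could not be fitted as a block, since each array lay on its own slide. No paired analysis was possible because the samples form 1 group. Signal over background limits F13a1, F3, Procr, Plau and the dimmer Plat probe. Among the other pathway genes it also limits Fgl2, Serpina5, Adamts13, Thbs1 and Anxa2.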
